A study of Mus musculus with 8 samples.

Results

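The genes described are 10 imprinted mouse genes whose promoters lie in regions methylated on the maternal chromosome. They are Mest, Plagl1, Airn, Peg3, Snrpn, Peg10, Sgce, Nnat, Nap1l5 and Impact, that is 10 of the 26048 annotated genes counted, and they were chosen for that property, with earlier results of these data known. Peg10 and Sgce are read in opposite directions from a shared promoter, so the 10 genes stand for 9 promoters. For each gene, H3K4me3 ChIP-Seq tags (36-bp sequenced ends) and input tags were counted within 1 kb on each side of the start of transcription. Among the annotated starts of a gene, the start with the most H3K4me3 over the 4 H3K4me3 libraries was used.

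The study asked which promoters lose H3K4me3 without menin, the product of Men1 and a subunit of an H3K4 methyltransferase complex, before and after differentiation. Wild-type (wt) TC-1 mouse embryonic stem cells (mESCs), Men1-KO (menin-null) 3.2N mESCs, and pancreatic islet-like endocrine cells (PILECs) differentiated in vitro from each of these lines were used. For every cell population there was 1 H3K4me3 library and 1 input library, the latter being sonicated chromatin sequenced without antibody. All cells were of the 129S6/SvEvTac background, each genotype is a single line, and the mESCs were grown on irradiated fibroblasts before they were made feeder-free. With 1 library per group there is no replicate check and no test between conditions. A difference between 2 libraries is therefore given with the 95% interval of the 2 tag counts, which covers counting error only and compares those libraries. Because the background is inbred, maternal and paternal copies cannot be told apart by sequence, and a level is the sum over both copies and over all cells.

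The depth of the H3K4me3 libraries was 2432377 tags (wt) and 3517028 tags (menin-null) for mESCs, and 18773635 tags (wt) and 17682677 tags (menin-null) for PILECs. Levels are given as tags per 1000000 tags of the library (RPM). Over exons 3 to 8 of the targeted gene Men1 the wt inputs held 17 (mESC) and 22 (PILEC) tags, and both menin-null inputs held 0. The pluripotency markers were at least 2-fold lower in PILECs than in mESCs for 8 of 8 genes in both genotypes. Of 10 islet endocrine markers, 8 were tested between the stages, and 3 were at least 2-fold lower and 0 higher in wt PILECs (against 20.4% and 6.64% of all tested genes), and 4 lower and 1 higher in menin-null PILECs (against 22.7% and 7.78%). In wt and menin-null PILECs, respectively, the hormone genes held few tags within 1 kb, with 6 and 8 at Gcg, 4 and 9 at Ins1, 13 and 6 at Iapp, 17 and 22 at Ins2, and 24 and 15 at Sst. The transcription factor gene Pdx1 held 20 and 24, while Pax6 held 362 and 388, Isl1 154 and 178, Neurod1 136 and 98, and Nkx2-2 82 and 111.

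At an imprinted gene only 1 parental copy is active, and the choice is set by DNA methylation laid down in the egg or the sperm. At a maternally methylated promoter the egg's copy is methylated and silent, while the sperm's copy is free of methylation, carries H3K4me3 and is transcribed. The methylation is kept through cell division with the help of ZFP57, a zinc finger protein that binds a short motif containing CpG on the methylated copy.

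The recognition hexamer of ZFP57, TGCCGC (read on both strands, so GCGGCA counts too), was looked for within 1 kb of each start in the mm9 genome. The promoters were not chosen by this hexamer. They were chosen by maternal methylation, which ZFP57 helps to keep, so the match counts are no independent result. It occurred 12 times at Mest, 10 times at Snrpn, 7 times at Airn, 6 times each at Plagl1, Peg3 and Nnat, 5 times at Nap1l5, and 2 times each at Peg10, Sgce and Impact. All 10 genes thus held at least 2 matches, against 18.2% of the 26048 genes, and 7 of 10 held at least 5, against 1.26%. The cut of 2 is the lowest count among the 10, so all of them pass it by construction. Of the 15379 genes with at least as many CpG in the window as Impact, the lowest of the 10, 29.2% held at least 2 matches. Other genes of domains with a maternally methylated control region had a median of 2 matches, and the neighbours of the 10 genes had a median of 1. The ratio of observed to expected CpG had a median of 0.66 over the 10 genes and 0.46 over all genes. A match describes the letters present and is not a measured binding site.

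The stretches below are those of 120 bases within 1 kb of the start that hold the most matches outside annotated exons, for Peg10 and Sgce the 101 bases between their starts, and the capitals mark the hexamer on either strand. Mest, Plagl1 and Airn are shown because their H3K4me3 was low in menin-null mESCs, and Snrpn, Peg3 and the promoter of Peg10 and Sgce because theirs was not. Each is written 5′ to 3′ in the direction of its gene (for the shared promoter, of Peg10). They lie at chr6:30687591-30687710 (plus strand) for Mest, chr10:12810981-12811100 (plus) for Plagl1, chr17:12934585-12934704 (plus) for Airn, chr7:67149299-67149418 (minus) for Snrpn, chr7:6682768-6682887 (minus) for Peg3 and chr6:4697205-4697305 (plus) for Peg10 and Sgce, all in mm9.
Mest: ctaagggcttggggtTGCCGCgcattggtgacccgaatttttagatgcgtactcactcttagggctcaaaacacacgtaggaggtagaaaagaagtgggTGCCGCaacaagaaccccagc
Plagl1: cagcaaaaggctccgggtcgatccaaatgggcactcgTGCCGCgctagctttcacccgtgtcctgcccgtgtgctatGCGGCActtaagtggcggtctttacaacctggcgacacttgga
Airn: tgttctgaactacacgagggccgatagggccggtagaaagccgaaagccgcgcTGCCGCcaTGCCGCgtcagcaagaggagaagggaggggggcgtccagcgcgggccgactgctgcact
Snrpn: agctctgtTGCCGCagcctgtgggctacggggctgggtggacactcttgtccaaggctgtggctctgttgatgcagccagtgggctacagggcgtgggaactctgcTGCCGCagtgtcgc
Peg3: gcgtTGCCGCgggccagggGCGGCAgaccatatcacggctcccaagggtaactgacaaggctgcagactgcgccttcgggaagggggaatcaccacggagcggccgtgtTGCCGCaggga
Peg10 and Sgce: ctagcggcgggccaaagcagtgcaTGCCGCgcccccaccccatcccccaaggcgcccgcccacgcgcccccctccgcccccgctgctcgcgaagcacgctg
The Mest stretch holds 2 matches upstream of the start, and those of Plagl1 and Airn hold 2 each downstream of the start used. The Snrpn stretch also holds 2, that of Peg3 holds 3 and that of Peg10 and Sgce holds 1.

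In wt mESCs, 9 of the 10 genes carried H3K4me3 at more than 2 times their input and Nap1l5 did not. Mest was at 23.8 RPM, Peg3 at 23.0 RPM, Snrpn at 22.6 RPM and Impact at 22.6 RPM, and these 4 levels did not differ beyond their counting intervals. Plagl1 followed at 12.7 RPM. Peg10 at 8.63 RPM, Sgce at 8.22 RPM, Nnat at 8.22 RPM and Airn at 6.58 RPM had overlapping intervals. Nap1l5, at 2.88 RPM against 2.59 RPM in the input, could not be told from its input level at this depth. Mest, the highest of the 10, was above 65.4% of all genes and Nap1l5, the lowest, above 40.4%.

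**Figure D1:**
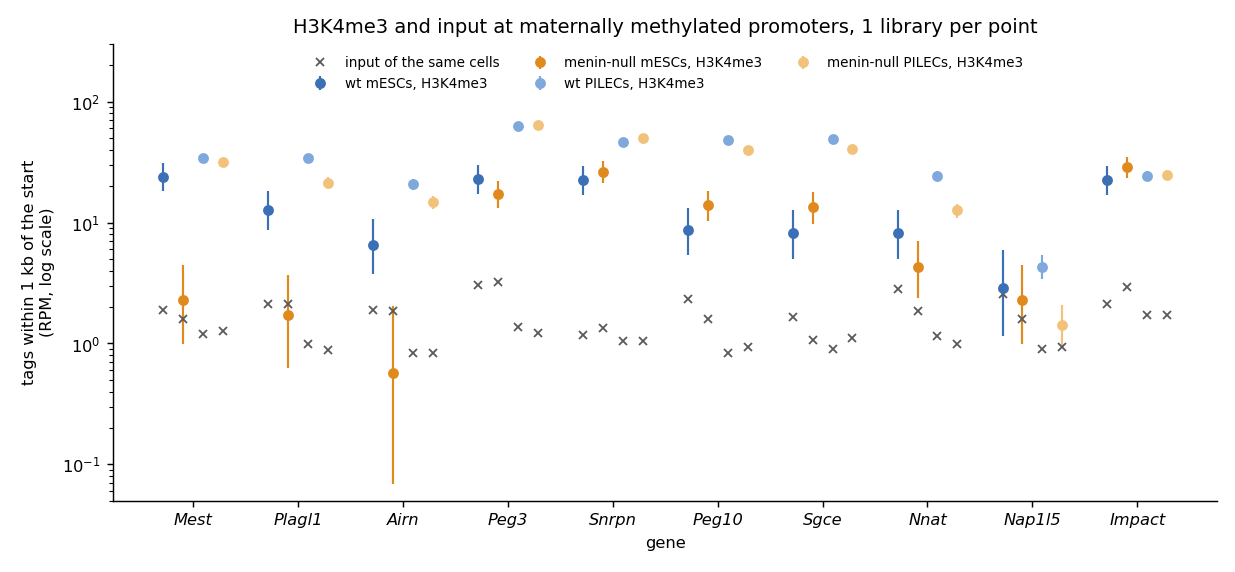
Tags within 1 kb of the start, in RPM on a log scale, for each gene in the 4 H3K4me3 libraries (circles, bars are 95% exact Poisson intervals) and in the matching inputs (crosses). In menin-null mESCs Mest, Plagl1 and Airn lie at 2.27, 1.71 and 0.569 RPM, near or below their inputs, and in PILECs of both genotypes every gene but Nap1l5 lies above 10 RPM.

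At 3 of these genes H3K4me3 was lower in menin-null than in wt mESCs. For the other 7 the interval of the difference at the start used included 0. Mest, which encodes a protein of the hydrolase fold, held 58 tags in wt mESCs and 8 in menin-null mESCs. Plagl1, which encodes a zinc finger transcription factor, held 31 and 6 tags. Airn, the noncoding RNA that silences Igf2r and its neighbours on the paternal chromosome, held 16 and 2 tags.

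In levels, Mest was at 23.8 RPM in wt and 2.27 RPM in menin-null mESCs, a log2 ratio of -3.24 (95% interval -4.67 to -2.32). For Plagl1 the log2 ratio was -2.72 (-4.45 to -1.62), from 12.7 to 1.71 RPM. For Airn it was -3.03 (-6.70 to -1.44), from 6.58 to 0.569 RPM, and this ratio rests on 2 tags. Of the 16102 genes with at least 10 tags in the 2 libraries together, Mest had the 2nd, Airn the 4th and Plagl1 the 7th lowest ratio. These ranks rest on 8, 2 and 6 tags in menin-null mESCs, and the intervals of these genes overlap, so their order is not firm.

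In menin-null mESCs the 3 promoters were near or below the level of their inputs. The level of H3K4me3 over that of input was 12.7 in wt and 1.42 in menin-null mESCs at Mest, 6.02 and 0.80 at Plagl1, and 3.49 and 0.30 at Airn. Each library was scaled by its own total, and 51.4% of menin-null mESC H3K4me3 tags lay within 1 kb of annotated starts. A level near input therefore does not show that H3K4me3 was absent. All 6 tags within 3 kb of Plagl1 in menin-null mESCs lay within 1 kb. The inputs themselves were alike, with 8 and 6 tags at Mest, 9 and 8 at Plagl1, and 8 and 7 at Airn. Within 50 kb of the start the log2 ratio of the inputs was -0.30 (-0.67 to 0.05) at Mest, 0.08 (-0.21 to 0.36) at Plagl1 and -0.09 (-0.35 to 0.17) at Airn, so all 3 intervals included 0.

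As the genes were proposed with earlier results known, the shares that follow describe them and are no independent test. The 3 of 10 genes at least 2-fold lower stand against 2.01% of all tested genes, and the 3 whose whole interval lay below 0 against 2.02%. None of the 10 was at least 2-fold higher, against 1.27% of tested genes, and none had its interval above 0, against 24.3%. The median log2 ratio was -0.39 over the 10 genes and 0.21 over all tested genes. Scaled by tags within 1 kb of all starts instead of total tags, every log2 ratio between the mESC genotypes falls by 0.24. The number of tested genes at least 2-fold lower then changes from 323 to 551 and of those at least 2-fold higher from 204 to 76, and the members lower from 3 to 4, with Nnat joining at -1.16.

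**Figure D2:**
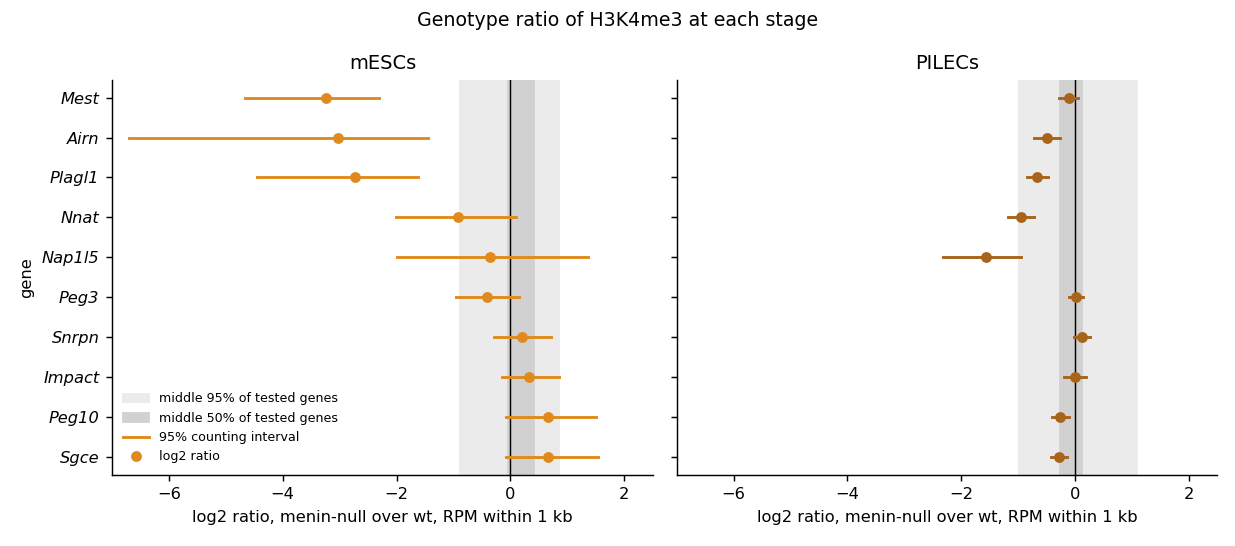
Each point is a gene's log2 ratio of H3K4me3, menin-null over wt, within 1 kb of the start, with the 95% counting interval, in mESCs (left) and PILECs (right). Grey bands hold the middle 95% and the middle 50% of all tested genes. Mest (-3.24), Airn (-3.03) and Plagl1 (-2.72) lie far left of the bands in mESCs, and Nap1l5 (-1.57) lies left of them in PILECs.

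Nnat, a small membrane protein gene nested in an intron of Blcap, lay just outside the 2-fold threshold in mESCs at the start used. It held 20 tags in wt and 15 in menin-null mESCs, a log2 ratio of -0.92 (-2.02 to 0.09). The start used is the most downstream of its 10 annotated starts. At each of its other annotated starts, all upstream, the counts were 21 and 7 tags, and at the most upstream one the log2 ratio was -1.99. The result at Nnat therefore depends on the start.

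The remaining 6 genes had intervals that include 0. Peg3, a zinc finger protein gene, held 56 tags in wt and 61 in menin-null mESCs (log2 ratio -0.41, -0.96 to 0.14). Snrpn, which encodes a core protein of spliceosomal particles, held 55 and 92 tags (0.20, -0.29 to 0.72), and its sign turned with the scaling, to -0.04 by tags at starts. Impact, a regulator of translation under amino acid shortage, held 55 and 101 tags (0.33, -0.14 to 0.85).

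Peg10, derived from a retrotransposon and needed in the placenta, held 21 and 49 tags (0.65, -0.07 to 1.5), and Sgce, the epsilon-sarcoglycan gene, held 20 and 47 (0.66, -0.08 to 1.53). As their windows overlap, these 2 values are nearly the same tags. Nap1l5, a nucleosome assembly protein relative nested in an intron of Herc3, held 7 and 8 tags. These levels were 1.11 and 1.42 times its input. Of the 8 and 9 tags within 3 kb, 7 and 8 lay within 1 kb.

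The mESC libraries are shallow, and the interval of Nap1l5 ran from -2.0 to 1.36, which includes a 2-fold difference in either direction. At Peg3 the input within 50 kb was higher in menin-null mESCs, with 205 tags against 164 and a log2 ratio of 0.50 (0.20 to 0.81). Divided by this input ratio, the log2 ratio of Peg3 was -0.91 instead of -0.41. For the other 9 genes the interval of the input ratio included 0.

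Most genes around Mest, Plagl1 and Airn had no low ratio in mESCs. Of the 14 tested genes with a start within 500 kb of Mest, 2210408F21Rik and Cpa1 were at least 2-fold lower, against 2.01% of all tested genes. The median log2 ratio around Mest was -0.03. Around Plagl1 none of 9 tested genes, and around Airn none of 11, was at least 2-fold lower or higher, with medians of 0.12 and 0.41. Over all tested genes 2.01% were lower and 1.27% higher. Igf2r, inside which Airn starts in an intron on the opposite strand, held 96 tags in wt and 157 in menin-null mESCs at its own promoter, a log2 ratio of 0.17 (-0.20 to 0.56). Copg2, which lies next to Mest, had a log2 ratio of 0.12 (-0.37 to 0.64), and Phactr2, next to Plagl1, of 0.12 (-0.50 to 0.78).

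Annotated starts far from the ones used held few tags in mESCs. Mest has 11 annotated starts, of which 4 lie within 1 kb of each other and share the tags above, and an upstream one on chromosome 6 at 30683506 held 6 tags in wt and 13 in menin-null mESCs. At a downstream one, at 30690782, the counts were 8 and 0. The far start of Airn, at 13008797, held 0 and 1 tags.

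The spread of the tags around the start differed between the genes. In wt mESCs, 51.9% of the Impact tags within 3 kb, 58.8% of the Sgce tags, 78.4% of the Mest tags and 91.2% of the Plagl1 tags fell within 1 kb of the start, and at Airn 93.8% of the tags within 1 kb lay downstream of it. In menin-null mESCs the spans of 3 kb on each side held 13 tags at Mest, 6 at Plagl1 and 12 at Airn. Of these, 8, 6 and 2 tags, respectively, lay within 1 kb of the start. Counted within 2 kb of the start the Airn log2 ratio was -1.82, against -3.03 within 1 kb. At Snrpn the 200-bp bin with the most tags began 400 bases downstream of the start in all 4 libraries.

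**Figure D3:**
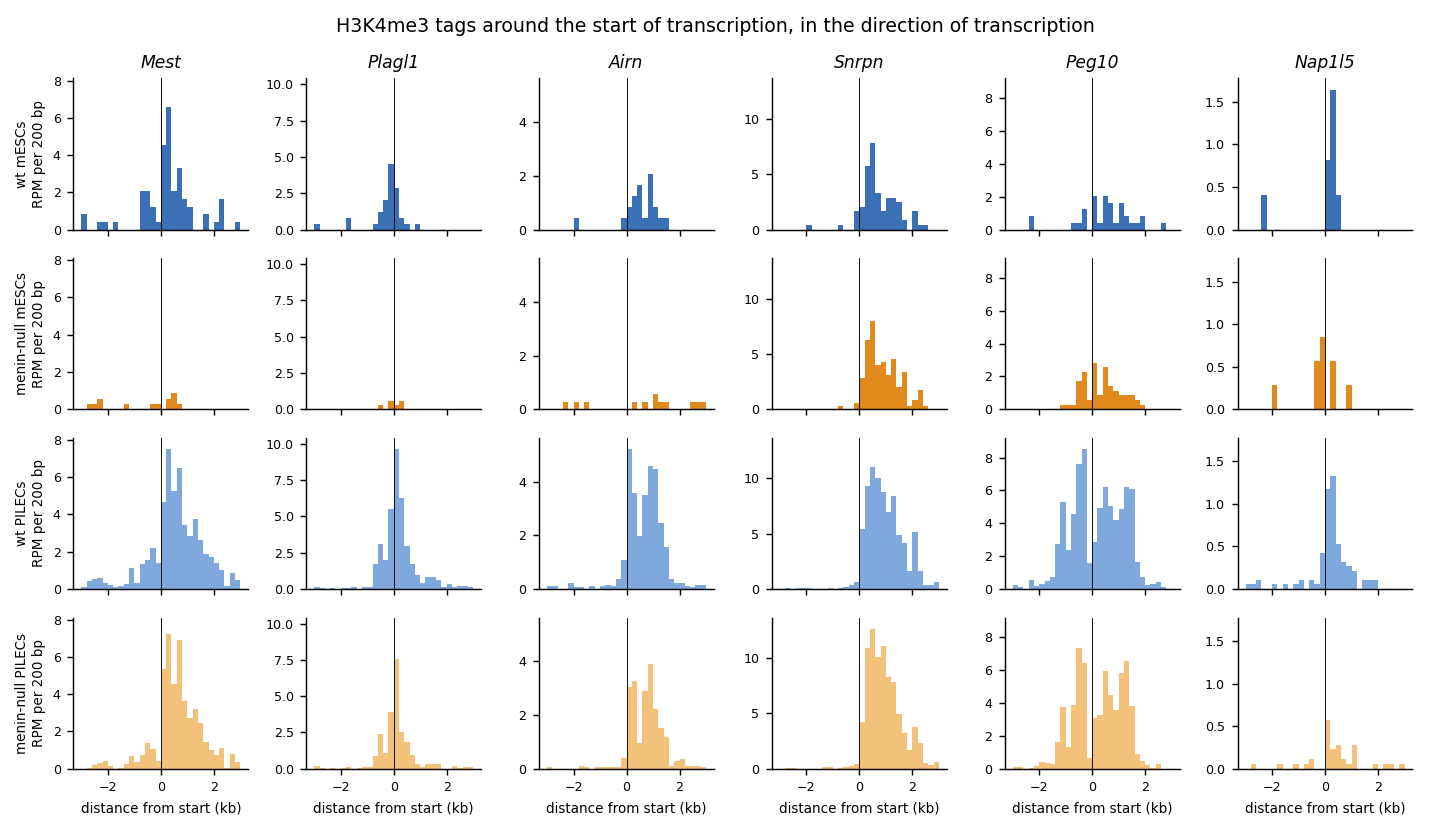
H3K4me3 tags in 200-bp bins around the start of 6 genes, in RPM per bin against the distance from the start in kb, in the direction of transcription, with 1 row per library and a shared vertical scale within each gene. The peaks of Mest, Plagl1 and Airn are present in both PILEC libraries, and in wt mESCs their highest bins hold 16, 11 and 5 tags. In menin-null mESCs their highest bins hold only 3, 2 and 2 tags, while Snrpn keeps its peak in all 4 libraries. In wt and menin-null mESCs, respectively, the highest bin holds 5 and 10 tags at Peg10, and 4 and 3 tags at Nap1l5.

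Markers of the fibroblast feeder layer were looked at beside this comparison. Summed over 14 fibroblast genes, H3K4me3 was 131 RPM in wt and 142 RPM in menin-null mESCs, while the median gene was at 5.76 and 3.98 RPM. Of these genes 10 could be tested and 1, Mfap5, was at least 2-fold lower in menin-null mESCs, with 16 and 8 tags. The share over all tested genes was 2.01%. None of the 10 was at least 2-fold higher, against 1.27%. In wt and menin-null mESCs, the highest markers were Twist1 with 73 and 137 tags, Col5a1 with 66 and 129, Fbn1 with 60 and 78 and Thy1 with 26 and 58. Scaled by library totals, their log2 ratios were 0.37, 0.42, -0.16 and 0.60, respectively, each with an interval that included 0. Col3a1 held 1 and 0 tags, Postn 3 and 0, Pdgfrb 3 and 2 and Prrx1 5 and 2. The part of feeder cells in the result was not tested. The share of repeat tags, at the same position and strand, was 11.4% in the wt mESC library and 4.17% in the menin-null mESC library. With repeats counted once the log2 ratio was -3.18 at Mest, -2.70 at Plagl1 and -3.15 at Airn.

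The PILEC libraries were deeper, and in them Mest, Plagl1 and Airn carried clear H3K4me3 in both genotypes. Mest held 641 tags in wt and 558 in menin-null PILECs (34.1 and 31.6 RPM), a log2 ratio of -0.11 (-0.28 to 0.05). Plagl1 held 637 and 379 tags (33.9 and 21.4 RPM, -0.66, -0.85 to -0.48). Airn held 388 and 260 tags (20.7 and 14.7 RPM, -0.49, -0.72 to -0.26).

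The largest genotype difference among the 10 genes in PILECs was at Nap1l5. It held 81 tags in wt and 25 in menin-null PILECs, against 17 tags in each input, and its log2 ratio was -1.57 (-2.32 to -0.95). Its level over input was 4.83 in wt and 1.51 in menin-null PILECs. A start of Herc3 lies in the same window, while the main Herc3 promoter had a log2 ratio of -0.25 (-0.45 to -0.05).

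Nnat was again just outside the threshold at the start used, with 457 and 223 tags and a log2 ratio of -0.95 (-1.19 to -0.71). At its most upstream start the log2 ratio was -1.03, past the threshold. The pair Peg10 and Sgce was slightly lower in menin-null PILECs, with 900 and 709 tags at Peg10 (-0.26, -0.40 to -0.11) and 925 and 714 at Sgce (-0.29, -0.43 to -0.14). Peg3 with 1189 and 1133 tags (0.02, -0.10 to 0.14), Snrpn with 863 and 885 (0.12, -0.01 to 0.26) and Impact with 460 and 434 (0.00, -0.19 to 0.19) did not differ beyond counting error.

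In this comparison 1 of 10 genes was at least 2-fold lower, against 2.43% of the 23886 tested genes, and none was at least 2-fold higher, against 3.22%. Intervals lay below 0 for 6 of 10, against 20.2% of tested genes, and above 0 for none, against 5.09%. Peg10 and Sgce, which share most of their tags, both count among the 6. Whether an interval excludes 0 also depends on the number of tags, and these shares are not matched for it. The median log2 ratio was -0.27 over the 10 genes and -0.06 over all tested genes. The number of tested genes at least 2-fold lower and higher was 580 and 770 scaled by total tags, and 424 and 1023 scaled by tags at starts, with 1 member lower under both. Input within 50 kb had an interval that included 0 at all 10 genes.

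Whether the genotype ratio itself differed between the stages was read from the 4 tag counts of each gene together. Each difference is the log2 of a conditional odds ratio estimate, rescaled by library totals, with no tag added. It therefore need not equal the difference of the log2 ratios given above, which had 1 tag added. The PILEC log2 ratio exceeded the mESC log2 ratio by 3.27 (2.19 to 4.57) at Mest, by 3.04 (0.93 to 6.21) at Airn and by 2.24 (0.94 to 3.80) at Plagl1. An interval above 0 was found for these 3 of 10 genes and for 1.47% of the 16087 genes with enough tags at both stages. At Peg10 (-0.95, -1.77 to -0.17) and Sgce (-0.99, -1.83 to -0.19), which share their tags, the interval lay below 0, as it did for 31.4% of genes. Scaled by tags at starts, the differences were -0.62 (-1.44 to 0.16) at Peg10 and -0.66 (-1.50 to 0.14) at Sgce, with intervals that include 0, and the interval of Peg3 lay above 0 (0.76, 0.19 to 1.32). That scaling adds 0.33 to the difference of every gene, while the shares of 1.47% and 31.4% are for total tags. By total tags the interval included 0 at the other 5 genes, also at Nap1l5, where it ran from -3.10 to 0.56.

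Most of these promoters carried more H3K4me3 in the PILEC libraries than in the mESC library of the same line. In the wt line 6 of 10 genes were at least 2-fold higher in PILECs, against 6.64% of the 21132 tested genes, and none was at least 2-fold lower, against 20.4%. Peg10 and Sgce, which share a promoter, both count among the 6. The median log2 ratio was 1.40 over the 10 genes and -0.14 over all tested genes. The highest ratio was that of Sgce, from 8.22 to 49.3 RPM (log2 ratio 2.51, 1.95 to 3.30), with Peg10 at 2.41 (1.85 to 3.17).

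Airn (1.57, 0.93 to 2.47), Nnat (1.5, 0.92 to 2.29), Peg3 (1.44, 1.07 to 1.87) and Plagl1 (1.37, 0.89 to 1.98) were the other 4 at least 2-fold higher. The call of Nnat depends on the start. At its most upstream start it held 21 tags in wt mESCs and 332 in wt PILECs, just under the threshold. Snrpn lay at the threshold with 1.00 (0.63 to 1.44) and was counted outside it. These ratios are not divided by input. Input within 50 kb was higher in wt PILECs than in wt mESCs at Peg3 (log2 ratio 0.46, 0.23 to 0.71) and Snrpn (0.35, 0.07 to 0.66). It was lower at Airn (-0.35, -0.54 to -0.14) and Nnat (-0.38, -0.57 to -0.17). Mest was 1.43-fold higher (0.50, 0.13 to 0.93), and the intervals of Nap1l5 (0.41, -0.52 to 1.94) and Impact (0.09, -0.29 to 0.55) included 0. In wt PILECs Peg3 was the highest of the 10, at 63.3 RPM and above 97.0% of all genes, and Nap1l5 the lowest, at 4.31 RPM.

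In the menin-null line 7 of 10 genes were at least 2-fold higher in PILECs, against 7.78% of the 21507 tested genes, and none was at least 2-fold lower, against 22.7%. This comparison shares the menin-null mESC library with the genotype comparison above, so the low counts at Mest, Plagl1 and Airn enter both. The log2 ratio was 3.63 (2.81 to 5.01) at Mest, 3.43 (2.52 to 5.11) at Plagl1 and 4.11 (2.83 to 7.75) at Airn. The 4 other genes at least 2-fold higher were Peg3 (1.86), Sgce (1.57), Peg10 (1.5) and Nnat (1.48). Snrpn was at 0.92, Impact at -0.24 and Nap1l5 at -0.80, the last with an interval from -1.88 to 0.67. In this line input within 50 kb was higher in PILECs at Snrpn (0.34, 0.04 to 0.67) and lower at Nnat (-0.41, -0.61 to -0.19).

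The median was 1.53 over the 10 genes and -0.33 over all tested genes. Scaled by tags at starts the ratios in the menin-null line rise by 0.36, so that Impact turns to 0.12, and the tested genes at least 2-fold lower and higher go from 4883 and 1674 to 3134 and 2633. In the wt line, scaled to the median ratio of all genes, they go from 4309 and 1404 to 3872 and 2033.

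Other genes of domains with a maternally methylated control region were counted from a list that was likewise made with earlier results known. Of 15 genes, 13 were matched in the annotation and 12 had enough tags in mESCs. None of the 12 was at least 2-fold lower or higher in menin-null mESCs, against 2.01% and 1.27% of all tested genes. Their median log2 ratio was 0.32. Their lowest values were at Zdbf2, a zinc finger gene (-0.07), and Gnas, the stimulatory G protein alpha subunit gene (-0.06). For no gene of this list was it checked that the start used lies in the maternally methylated region. Gnas, Nespas and Inpp5f have several promoters. Grb10, an adaptor that restrains growth, held 72 tags in wt and 153 in menin-null mESCs (0.55, 0.14 to 0.98).

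In PILECs 2 of 13 genes of this list were at least 2-fold lower without menin, against 2.43% of all tested genes, and 0 were at least 2-fold higher, against 3.22%. Zdbf2 held 541 tags in wt and 198 in menin-null PILECs (-1.36, -1.61 to -1.13), and Slc38a4, an amino acid transporter gene, held 239 and 96 (-1.22, -1.59 to -0.88). Grb10 was at -0.75 (-1.22 to -0.30), and the median of the list was -0.20.

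Of the 10 neighbours of the members, which are not known as paternally expressed there, none was at least 2-fold changed in mESCs. Over all tested genes 2.01% were lower and 1.27% higher. The median of the neighbours was 0.12. In PILECs 1 of 10, Casd1, a sialic acid acetyltransferase gene near Sgce, was lower, with 454 tags in wt and 175 in menin-null PILECs (-1.28, -1.55 to -1.03), and the median was -0.16. Within 500 kb of Peg10 and Sgce, 2 of 4 tested genes were at least 2-fold lower in menin-null PILECs, Casd1 and Pon1. The share of all tested genes at least 2-fold lower in menin-null PILECs was 2.43%.

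Of 5 genes from domains with a paternally methylated control region, 4 could be tested in mESCs. Meg3, a noncoding RNA gene, held 64 tags in wt and 7 in menin-null mESCs (-3.55, -5.10 to -2.60), and in PILECs it held 751 and 683 tags (-0.05). The input within 50 kb of Meg3 was also lower in menin-null than in wt mESCs, with 326 tags in wt and 110 in menin-null mESCs (log2 ratio -1.38, -1.71 to -1.07). In PILECs of the same lines this input held 911 and 831 tags (-0.06, -0.20 to 0.07). Divided by the mESC input ratio, the H3K4me3 log2 ratio of Meg3 in mESCs was -2.18. The other 3 were Dlk1 (-0.89, -1.83 to -0.01), Igf2 (0.27, -0.50 to 1.12) and Rasgrf1 (0.39, -0.41 to 1.31).

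**Figure D4:**
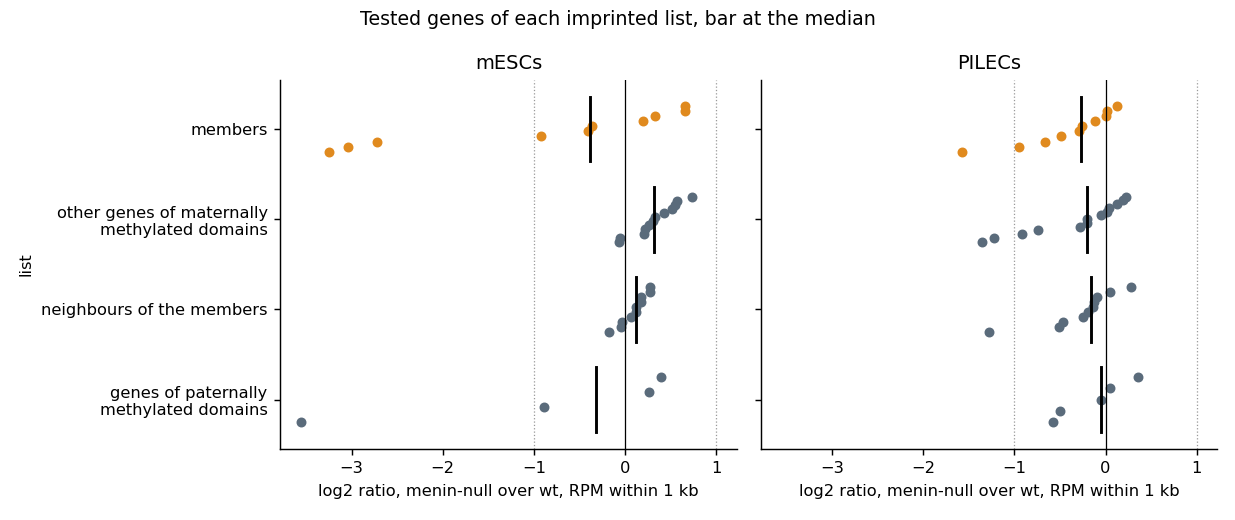
Each point is the H3K4me3 log2 ratio, menin-null over wt, of a tested gene of 4 imprinted lists, in mESCs (left) and PILECs (right), with a bar at the median of the list and dotted lines at a 2-fold difference. In mESCs 3 members and Meg3 lie below -2, while the 12 other genes of maternally methylated domains and the 10 neighbours lie between -0.18 and 0.74.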

How the data were processed

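H3K4me3 and input chromatin of wt and menin-null mESCs and PILECs were sequenced, 1 library each. Per the methods, the authors aligned 36-bp reads to mm9, kept uniquely mapped tags with at most 2 mismatches and deposited their positions, and the aligner is not given in the sources used here. The deposited files are lists of tag positions, and tags above 2 mismatches made up 1.04 to 1.81% of each. Each tag was moved by 125 bp, to the middle of a 250-bp fragment, and counted within 1 kb of GENCODE vM1 starts (Python 3.11.15, numpy 2.4.6, scipy 1.17.1). Tag counts were divided by the library total. Log2 ratios had 1 tag added to each count, genes needed 10 tags in the 2 libraries together, and intervals are exact conditional binomial limits of the counts as observed. Differences of the genotype ratio between the stages are conditional odds ratio estimates with no tag added and exact limits. Totals were 2432377 to 3517028 tags in mESC and 17682677 to 18773635 in PILEC H3K4me3 libraries, and 3744616 to 19016697 in inputs. The genes named are the 10 members and genes of the lists and markers, while 2210408F21Rik, Cpa1 and Pon1 were named after their values were seen. Members, lists, thresholds and the hexamer were chosen with earlier results of these data known. The calculation of ratios and intervals was tested on simulated counts. Alternatives were other scalings, windows, starts, added tags, minimum counts, folds, input corrections and tag filters.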

Additional observations from a re-analysis of the deposited data

Results flagged for a closer look

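The genotype ratio of H3K4me3 differed between mESCs and PILECs beyond counting error at 5 genes, of which Peg10 and Sgce are 1 promoter and moved in the direction of many genes. Estimated from the tag counts with no tag added, the PILEC log2 ratio minus the mESC log2 ratio was 3.27 at Mest, 3.04 at Airn and 2.24 at Plagl1. It was -0.95 at Peg10 and -0.99 at Sgce, which share a promoter and most of their tags. By total tags, an interval above 0 was found for 1.47% of all genes tested at both stages and an interval below 0 for 31.4%. Scaled by tags at starts, which adds 0.33 to the difference of every gene, the values at Peg10 and Sgce were -0.62 and -0.66. Their intervals then include 0, while that of Peg3 lay above 0 (0.76, 0.19 to 1.32). The shares over all genes are not given for that scaling. The intervals cover counting error in 4 libraries with no replicates, and genotype and cell line cannot be told apart, since each genotype is 1 line.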

How the results depend on the processing

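The 3 genes at least 2-fold lower in menin-null mESCs, Mest, Plagl1 and Airn, had log2 ratios below -1 under each of 10 alternatives that recompute a ratio at the promoter, with -1.82 the value nearest to 0, at Airn within 2 kb. The most 5′ start of Mest lies away from the promoter and its ratio there says nothing of it. With a minimum of 20 tags Airn was not tested, which left 2 genes lower. The count was 4 under 7 of the 14 alternatives: both scalings, the 5′ end of the tag, 2 kb, input subtracted, the most 5′ start and a fold of 1.5. At the most 5′ start this count includes Mest away from its promoter, with 7 tags in wt and 3 in menin-null mESCs. With a fold of 1.5, 2 genes were higher in menin-null mESCs instead of 0. In PILECs the genes lower numbered 2 within 2 kb, 2 at the most 5′ start, 3 with a fold of 1.5 and 0 with a fold of 3, against 1. In wt PILECs over wt mESCs 1 gene was lower at the most 5′ start, against 0, and 2 were higher with a fold of 3, against 6. In the menin-null line 1 was lower within 500 bp and 1 with a fold of 1.5, against 0, and 4 were higher with a fold of 3, against 7. Genes whose whole interval of the stage difference lay below 0 numbered 1 with repeats counted once, 1 within 500 bp and 0 scaled by tags at starts, against 2. At its most 5′ start, far from its main cluster, Mest reversed in the menin-null line, to -0.63 from 3.63. Of 440 values of single genes, 422 moved by less than their counting interval. With input subtracted, Plagl1 in mESCs was at -5.28 and Nap1l5 in PILECs at -2.71. Counts over all genes moved by over 1.5 times for 37 of 112 values. With input subtracted, 707 genes were lower and 659 higher between the mESC genotypes, and 1293 and 1324 between the PILEC genotypes. With a minimum of 20 tags, 136 were lower in menin-null mESCs, and 340 lower and 348 higher in menin-null PILECs. No paired analysis was possible because each group has 1 library. The depth of the mESC libraries leaves wide intervals, such as -6.70 to -1.44 for the log2 ratio of Airn.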
